A study of Mus musculus with 30 samples.

Results

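The genes described here are 10 regulators of the G1 phase of the cell cycle: the D-type cyclins Ccnd1, Ccnd2 and Ccnd3, the E-type cyclins Ccne1 and Ccne2, the kinases Cdk4 and Cdk6, and the kinase inhibitors Cdkn1b, Cdkn2a and Cdkn2b. They were chosen by name, and all 10 of 10 were found among the 78334 gene identifiers of the deposited table by their mouse Ensembl identifier. All 10 also passed the filter on low counts in both sequencing runs, where 15350 and 15103 genes were tested.

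In G1, growth factors raise D-type cyclins, which bind and activate Cdk4 or Cdk6. These kinases, and then Cdk2 with an E-type cyclin, phosphorylate the retinoblastoma protein and its relatives, which releases E2F transcription factors and opens the way to DNA synthesis. INK4 inhibitors, such as the Ink4a product of Cdkn2a and the product of Cdkn2b, bind Cdk4 and Cdk6, whereas the CIP/KIP inhibitor p27Kip1, the product of Cdkn1b, acts mainly on complexes that hold Cdk2. In the vessel wall, smooth muscle cells rest in G1 or before it and re-enter the cycle after injury or exposure to platelet-derived growth factor (PDGF).

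The study sequenced RNA of cultured smooth muscle cells, labelled as coming from mouse aorta, in 30 libraries, 9 groups and 2 sequencing runs, after 48 h without serum. Knockdown used a GapmeR, an antisense oligonucleotide that directs RNase H to its target RNA, here the long noncoding RNA CASC15, and overexpression used a plasmid. In some titles the number of the target rises across replicates, from CASC15 up to CASC22, and libraries were grouped here by the code in their library name. Gapmers and plasmid were given at 1 ug/ml at least 24 h before the endpoint. Run 2 held untreated cells only: 2 libraries with the control antisense oligonucleotide, 2 labelled as knockdown of total CASC15, 3 with the control plasmid and 3 with overexpression of total CASC15. Run 3 held 4 libraries each of control antisense cells without treatment, with angiotensin II at 10 ng/ml and with PDGF-BB at 10 to 30 ng/ml, and of knockdown of long CASC15 without treatment and with angiotensin II. Treatments lasted 24 h, only control cells received PDGF-BB, and every group shared the serum-free medium and a transfection. For every group the sample records also list 10% serum beside the 48 h without serum. Each library also carries a batch label from P16 to P19, with at most 1 library of a group per batch. The labels do not say whether batches are separate animals, isolations or cultures, so each p-value measures the spread between these libraries, which may be technical.

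Totals ranged from 18007199 to 21881959 counts per library in run 2 and from 15771490 to 30362047 in run 3. The gene taken here as CASC15, the long noncoding RNA gene 2610307P16Rik, stood at 716 CPM (counts relative to the library total, adjusted by TMM) ± 174 (SD, n = 3) in the overexpression libraries against 6.42 ± 2.34 (n = 3) with the control plasmid. It stood at 2.87 ± 0.561 (n = 4) in the long knockdown against 5.52 ± 0.53 (n = 4) in its control. In the libraries labelled total knockdown it stood at 9.01 ± 1.02 (n = 2), above the 7.02 ± 0.913 (n = 2) of their control, so these are called the libraries labelled total knockdown throughout. Of the smooth muscle markers, Acta2 stood at 212 CPM in the run 3 control, but Cnn1 was at 3 counts or fewer in every library of 7 of the 9 groups, and Myh11 in every library of the run 3 control and PDGF-BB groups. Fibroblast markers summed to between 2640 and 4293 CPM over all 30 libraries, whereas the endothelial markers Cdh5, Cldn5 and Emcn and the leukocyte markers Ptprc and Adgre1 stayed at 3 counts or fewer throughout. Other markers of these types were detected, and the full lists summed to 0.356 to 10.1 CPM (endothelial) and 8.69 to 32.5 CPM (leukocyte). Epithelial markers, among them Cdh1, summed to 35.1 to 150 CPM. In bulk RNA such as this, fewer cells of a type and less RNA per cell cannot be told apart.

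Promoter windows from RefSeq (build GRCm38.p6, from 250 bases before the annotated start to 50 after it) were matched by symbol for 7 of the 10 genes, in 9 windows. The build behind the deposited counts is not settled by the sources used here, so these coordinates belong to the RefSeq table and not to the counts. Windows of 3 genes that were called below are shown, 5′ to 3′ on the strand of the gene, picked after the search because their matches were the most numerous or, for Cdkn2a, because its starts differ. Each was searched on both strands for the E-box CACGTG, the GC box GGGCGG and 4 E2F 7-mers, with overlapping matches counted separately. The 7-mers were TTCCCGC as well as its variants TTCGCGC together with TTGCCGC and also TTGGCGC. Capitals mark GC boxes in Ccne1, E-boxes in Cdk4 and E2F 7-mers in Cdkn2a.

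Ccne1, chr7:38107441-38107740, minus strand: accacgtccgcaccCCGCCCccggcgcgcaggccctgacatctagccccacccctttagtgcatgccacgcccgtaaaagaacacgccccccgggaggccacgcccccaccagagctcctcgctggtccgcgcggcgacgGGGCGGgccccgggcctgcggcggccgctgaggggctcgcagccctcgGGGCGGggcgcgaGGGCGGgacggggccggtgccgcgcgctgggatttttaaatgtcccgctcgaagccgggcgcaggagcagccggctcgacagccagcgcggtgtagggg
Cdk4, chr10:127063285-127063584, plus strand: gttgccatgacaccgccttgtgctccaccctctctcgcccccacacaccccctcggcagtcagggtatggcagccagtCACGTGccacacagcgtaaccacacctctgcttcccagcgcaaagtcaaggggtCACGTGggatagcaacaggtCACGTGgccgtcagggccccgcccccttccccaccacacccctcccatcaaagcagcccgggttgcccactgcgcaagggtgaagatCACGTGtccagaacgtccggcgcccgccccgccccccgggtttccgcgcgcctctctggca
Cdkn2a, upstream start (the Arf transcript), chr4:89294570-89294869, minus strand: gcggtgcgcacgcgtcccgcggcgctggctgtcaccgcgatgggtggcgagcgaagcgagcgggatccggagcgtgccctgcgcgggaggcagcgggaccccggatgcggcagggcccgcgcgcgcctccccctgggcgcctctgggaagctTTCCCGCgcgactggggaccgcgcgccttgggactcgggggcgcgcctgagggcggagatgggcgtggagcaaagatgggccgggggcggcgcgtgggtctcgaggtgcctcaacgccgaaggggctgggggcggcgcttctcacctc
Cdkn2a, downstream start (the Ink4a transcript), chr4:89282143-89282442, minus strand: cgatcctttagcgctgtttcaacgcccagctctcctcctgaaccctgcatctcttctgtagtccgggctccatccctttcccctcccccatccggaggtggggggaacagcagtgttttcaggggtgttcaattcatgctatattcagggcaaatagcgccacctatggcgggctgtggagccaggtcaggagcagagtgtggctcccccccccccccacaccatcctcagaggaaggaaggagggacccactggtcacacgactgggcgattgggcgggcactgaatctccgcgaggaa

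The Cdk4 window held 4 matches to CACGTG, at 172, 118, 98 and 11 bases before the start. Among all 32851 windows of 300 bases in the table, 7.15% held at least 1 match and 0.0244% held at least 4. The Ccne1 window held 4 matches to GGGCGG and none to the E2F 7-mers, and 5.49% of all windows held at least 4 GC boxes. The upstream Cdkn2a window held 1 E2F 7-mer, 98 bases before the start, and the downstream window held none. At least 1 E2F 7-mer was present in 9.57% of all windows. No window was matched for Ccnd1, Ccnd2 or Ccne2, so these genes were not searched. The other genes whose windows are not shown held few matches: Cdk6 had 1 E-box, Cdkn1b and Cdkn2b 1 GC box each, and both windows of Ccnd3 2 GC boxes each. Cdkn2a encodes 2 unrelated proteins from these starts, Ink4a and Arf, and the deposited gene count adds their transcripts together.

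Levels between genes were compared per kilobase of exon, with all exons of a gene merged. In the untreated control of run 3, Cdk4 had the highest mean, with 112 CPM per kb ± 4.1 (SD, n = 4), followed by Ccnd1 with 82.7 ± 32.5, Ccnd2 with 50 ± 11.9 and Cdkn1b with 49.2 ± 2.85. The interval of mean ± SD of Ccnd1 met those of the other 3 genes, so the order of the 4 was not resolved around it on this scale. In P19, on the same scale, Ccnd1 lay above Cdk4. The other inhibitors followed, with 14.3 ± 3.81 CPM per kb for Cdkn2b and 9.67 ± 1.42 for Cdkn2a. Cdk6 stood at 6.42 ± 0.171 and Ccnd3 at 4.61 ± 0.342, and the E-type cyclins were lowest, with 1.15 ± 0.221 for Ccne2 and 0.265 ± 0.0646 for Ccne1. Per kilobase of the longest transcript instead, an alternative added after seeing the data, the order of Cdk6 and Ccnd3 turned, with 7.79 ± 0.207 for Cdk6 and 10.5 ± 0.777 for Ccnd3 (SD, n = 4). Cdk4 stood at 177 ± 6.49 and Ccnd1 at 104 ± 40.9 per kilobase of the longest transcript, where their intervals of mean ± SD did not meet. The E-type cyclins were again lowest. Every member was thus detected in serum-starved cells, and Ccne1 was nearest the limit with 9 to 25 counts per library.

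The same untreated control group was sequenced in run 2, where runs were scaled separately and were not tested against each other. Ccnd1 stood at 110 and 151 CPM in the 2 libraries of run 2 and at 302 to 618 CPM in the 4 of run 3. Cdk6 stood at 34.1 and 38.9 CPM in run 2 and at 88.1 to 93.3 in run 3, and Ccne2 at 0.579 and 0.642 against 3.25 to 5.05. The expected counts of all 10 members were whole numbers in all 10 libraries of run 2, whereas those of Ccne2, Ccnd1, Ccnd3 and Cdk4 were not whole in any of the 20 libraries of run 3. Whether the runs were counted alike is not given in the sources used here. Some members overlap an exon of a neighbour in the GENCODE M21 annotation: Ccnd1 overlaps LTO1, Ccnd3 overlaps Bysl, Ccne2 overlaps Ints8, Cdk4 overlaps Tspan31, and Ccnd2 and Cdk6 overlap antisense genes. The strand setting of the counting is not given in the sources used here, so reads in those exons cannot be assigned with certainty.

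**Figure D1:**
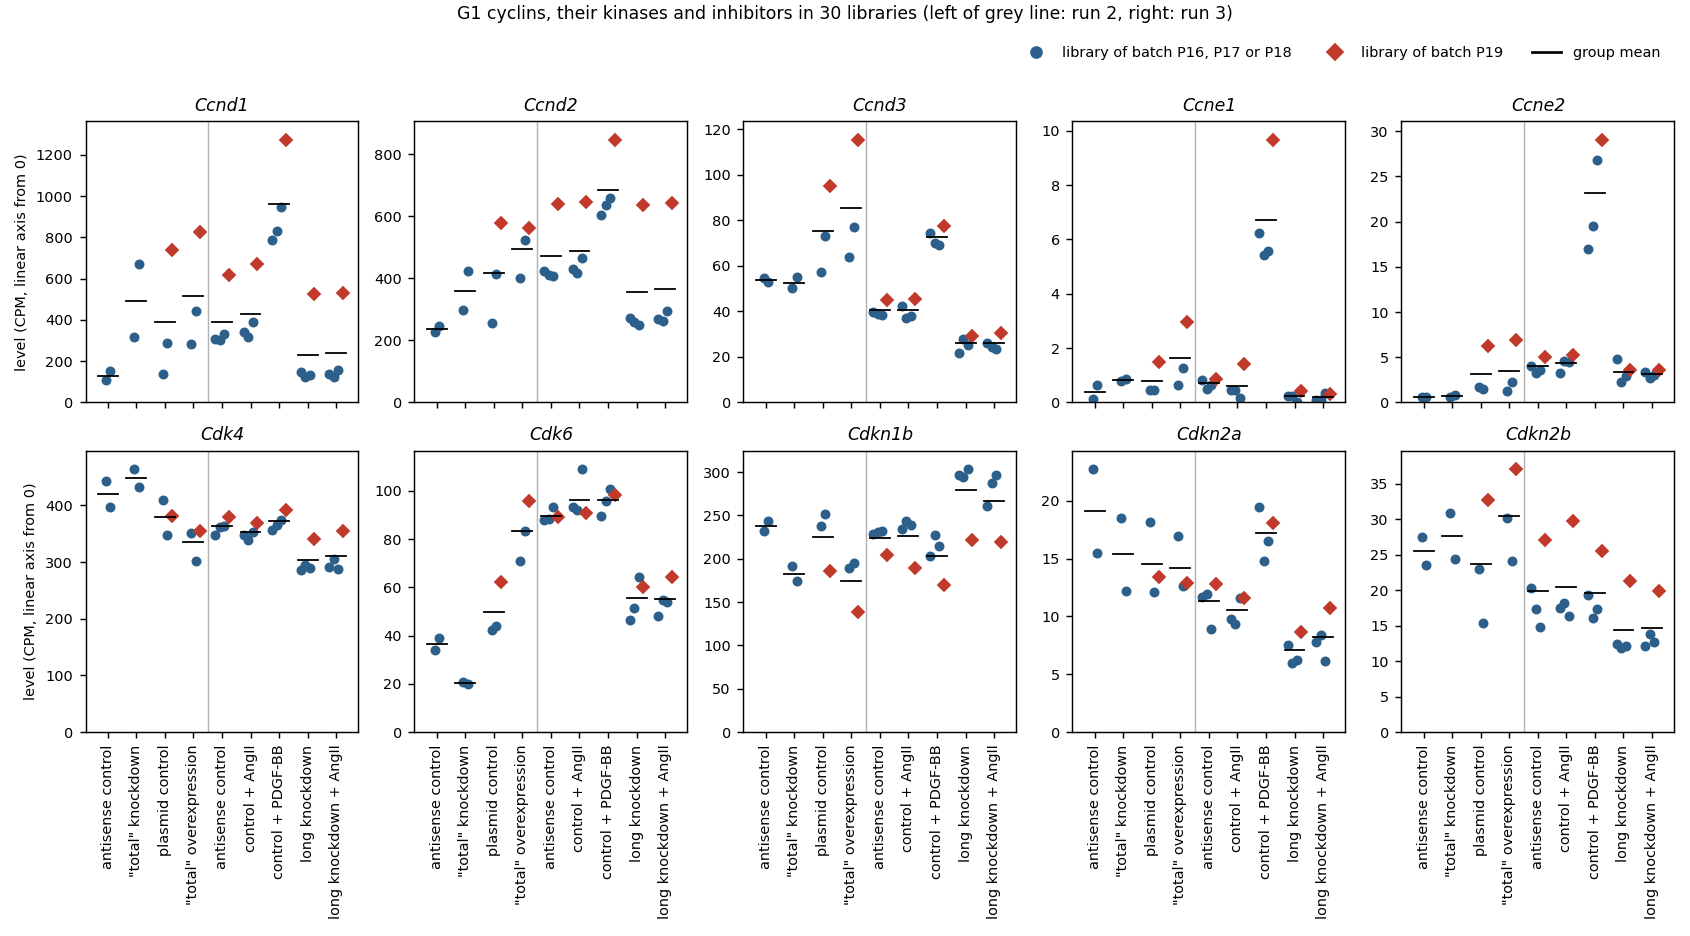
Level of each member in every library (CPM, linear axis from 0), with 1 point per library and a bar at the group mean; run 2 lies left of the grey line and run 3 right of it. Libraries of batch P19 are red diamonds. Ccne1 and Ccne2 were highest with PDGF-BB, and in the long knockdown groups the P19 libraries of Ccnd1 (526 and 531 CPM) stood far above the other 6 (122 to 157 CPM).

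Batch P19 stood apart in these genes and is given before the comparisons because it touches most of them. In all 7 of the 7 groups that hold a P19 library, that library had the highest level of Ccnd1, Ccnd2, Ccnd3 and Cdkn2b, and the lowest level of Cdkn1b. Ccnd1 in P19 was 1.49 to 3.91 times the mean of the other batches of the same group, Ccnd2 1.22 to 2.44 times, Ccnd3 1.09 to 1.64 times and Cdkn2b 1.36 to 1.76 times. Cdkn1b was 0.72 to 0.888 times that mean. Ccne1, Ccne2 and Cdk4 were highest in P19 in 6 of 7 groups, whereas Cdk6 and Cdkn2a were so in 3 of 7. The mitochondrial share of counts was also lowest in P19 in 6 of these 7 groups, at 1.73 to 2.65% in run 3 against 2.59 to 3.33% in the other batches, and its part in the results was not tested. Higher D-type cyclins and lower p27Kip1 message thus travelled with the batch within every group. Its part in each comparison is shown by a fit with batch as a block and by a fit without P19, the latter added after this pattern was seen.

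**Figure D2:**
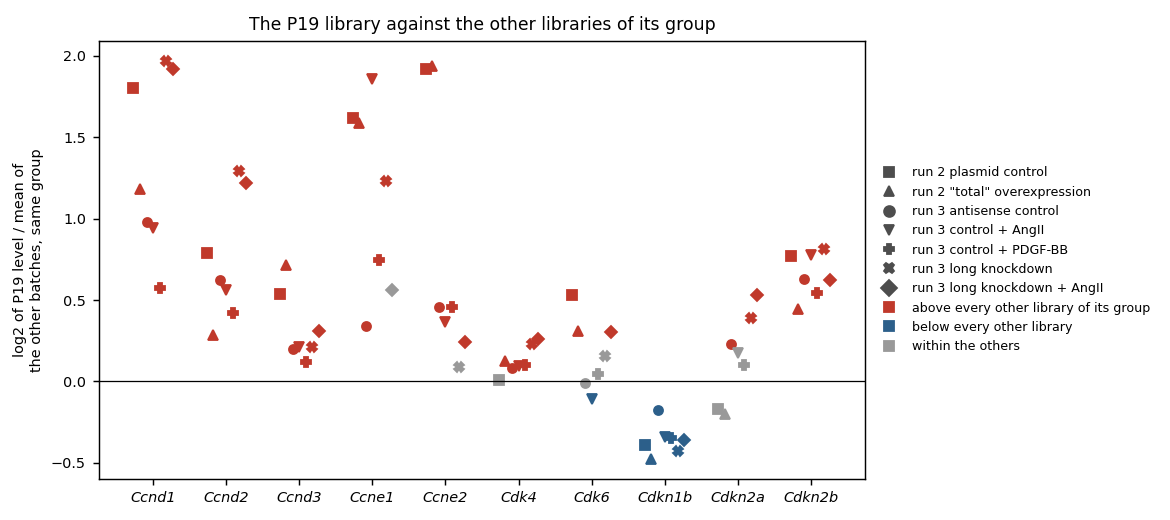
The log2 ratio of the P19 library to the mean of the other batches of its group, for each member (columns) and each of the 7 groups with a P19 library (symbols). Red points lie above every other library of the group and blue points below; the ratios for Ccnd1 reach 1.97 and all 7 points for Cdkn1b lie between -0.475 and -0.172.

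PDGF-BB is a mitogen of smooth muscle cells, and its effect was read in control cells of run 3 against untreated ones. Of the 10 genes, 4 rose (adjusted p under 0.05 in the quasi-likelihood test of edgeR, with p-values adjusted over all genes by Benjamini-Hochberg, as for every adjusted p here unless DESeq2 is named) and none fell. In that comparison 43.6% of all genes tested were called, and 23.6% were called higher, so 4 of 10 is near the background in either direction. The E-type cyclins had the largest differences. Ccne1 went from 0.84, 0.487, 0.648 and 0.847 CPM (batches P16 to P19) to 6.23, 5.44, 5.58 and 9.67 CPM. Every PDGF-BB library thus lay above every untreated library. The log2 fold change was 3.22 (adjusted p = 1.33e-05, SE 0.465), or 9.35-fold. Ccne2 went from 4.07, 3.25, 3.64 and 5.05 CPM to 17, 19.6, 26.9 and 29.1 CPM, again without overlap, with a log2 fold change of 2.52 (adjusted p = 1.58e-08, SE 0.216).

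Of the D-type cyclins, Ccnd3 rose with PDGF-BB in the fit without a block. Its level went from 39.9, 38.7, 38.5 and 44.9 CPM to 74.7, 70.2, 69.3 and 77.7 CPM, a log2 fold change of 0.85 (adjusted p = 5.81e-07, SE 0.0953). Ccnd1, the classic delayed early gene of mitogen signalling, stood at 307, 302, 331 and 618 CPM untreated and at 788, 832, 945 and 1273 CPM with PDGF-BB. The groups did not overlap, and all 4 batches were higher, by a log2 ratio of 1.04 to 1.51. The log2 fold change of 1.3 (SE 0.529) had an adjusted p of 0.0577 without a block, 0.000226 with batch as a block, and 3.41e-09 without P19. DESeq2, also without a block, gave an adjusted p of 0.0333. Ccnd2 stood at 423, 411, 409 and 638 CPM and at 603, 636, 658 and 846 CPM, higher in 4 of 4 batches. Its log2 fold change of 0.54 (SE 0.325) had an adjusted p of 0.19, and of 0.00506 with the block.

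The kinases differed little. Cdk4 had a log2 fold change of 0.03 (adjusted p = 0.71, SE 0.0678) and Cdk6 of 0.10 (adjusted p = 0.414, SE 0.093). Among the inhibitors, Cdkn2a rose together with the E-type cyclins, from 11.7, 11.9, 8.93 and 12.8 CPM to 19.5, 14.8, 16.5 and 18.1 CPM, without overlap, with a log2 fold change of 0.60 (adjusted p = 0.00391, SE 0.156). Cdkn2b, its neighbour on chromosome 4, had a log2 fold change of -0.03 (adjusted p = 0.938, SE 0.241). Cdkn1b stood at 204 to 232 CPM untreated and at 169 to 227 CPM with PDGF-BB, lower in 4 of 4 batches, and its log2 fold change of -0.14 passed the test with batch as a block but not in the fit without it (adjusted p = 0.349 without it and 0.0121 with it). With the block 7 of 10 were called, 6 higher and 1 lower, against 54.5% of all genes. Without P19 the number was 6, all higher, against 48.9%.

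**Figure D3:**
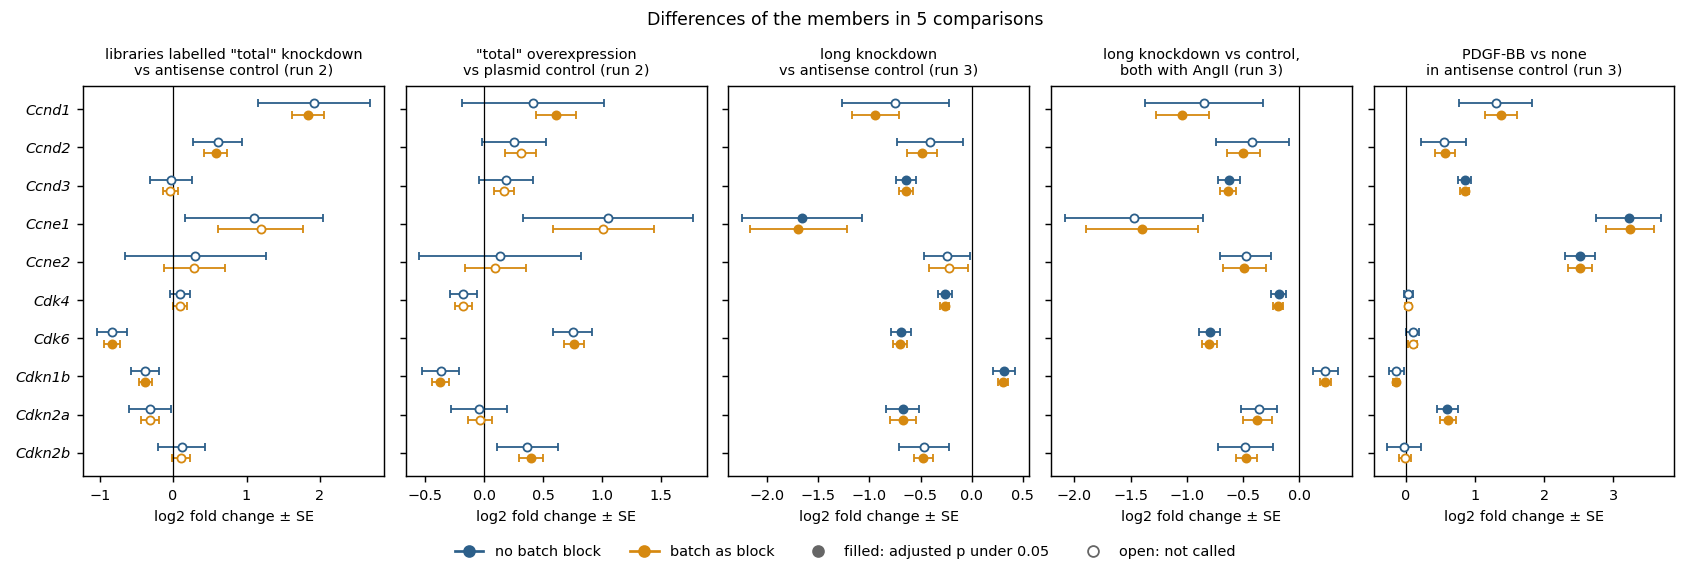
Log2 fold change with its standard error for each member in 5 comparisons, from the fit without a batch block (blue) and with batch as a block (orange); filled points have an adjusted p under 0.05. The estimates of both fits lie close together while the bars of Ccnd1, Ccnd2 and Cdkn2b shorten with the block, and in PDGF-BB the E-type cyclins lie farthest right, at 3.22 and 2.52 without the block.

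Knockdown of long CASC15 in untreated cells was compared with the control oligonucleotide. Of the 10 genes, 6 were called: Ccnd3, Ccne1, Cdk4, Cdk6 and Cdkn2a fell and Cdkn1b rose. In that comparison 25% of all genes were called, and 12.8% were called lower. The median log2 fold change of the 10 genes was -0.55, against 0.02 over all genes tested. Cdk6 went from 88.1, 88.4, 93.3 and 89.2 CPM in the control to 46.4, 51.4, 64.4 and 60.3 CPM in the knockdown. No library overlapped, and the log2 fold change was -0.69 (adjusted p = 1.92e-05, SE 0.0942). Cdk4, the more abundant kinase, went from 347, 361, 364 and 380 CPM to 286, 295, 290 and 341 CPM. The knockdown libraries were all lower, by a log2 fold change of -0.26 (adjusted p = 0.00729, SE 0.0679).

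Ccnd3 went from 39.9, 38.7, 38.5 and 44.9 CPM to 21.7, 28.1, 25.3 and 29 CPM with the knockdown, without overlap, and its log2 fold change was -0.64 (adjusted p = 6.26e-05, SE 0.0971). Ccnd1 stood at 147, 122, 134 and 526 CPM in the knockdown against 307, 302, 331 and 618 in the control. It was lower in 4 of 4 batches, but the P19 knockdown library lay above 3 of the 4 control libraries. The log2 fold change was -0.75 (adjusted p = 0.322, SE 0.526). With batch as a block it was -0.94 (adjusted p = 0.00575), and without P19 it was -1.23 (adjusted p = 5.73e-08). Leaving out only the P19 library of the control gave -0.438, which was not called, and only that of the knockdown -1.54. Ccnd2 stood at 273, 258, 250 and 636 CPM against 423, 411, 409 and 638, so that the P19 libraries of both groups were nearly level. Its log2 fold change was -0.41 (adjusted p = 0.387), -0.49 with the block (adjusted p = 0.0171) and -0.68 without P19 (adjusted p = 5.62e-10). It was -0.232, not called, without the P19 control library and -0.855 without the P19 knockdown library. For both genes the call without a block therefore rests on whether the P19 knockdown library is kept.

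Of the E-type cyclins, Ccne1 fell from 0.84, 0.487, 0.648 and 0.847 CPM to 0.234, 0.223, 0 and 0.425 CPM. These are 9 to 25 counts per control library and 0 to 8 counts per knockdown library, and the P18 knockdown library had none. The log2 fold change of -1.66 (adjusted p = 0.0438, SE 0.589) was near the threshold and did not pass it in 6 of 8 fits that left out a library. Ccne2 had a log2 fold change of -0.24 (adjusted p = 0.464, SE 0.223), which ranged from -0.476 to -0.0925 when a library was left out.

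Among the inhibitors, Cdkn2a fell with the knockdown, from 11.7, 11.9, 8.93 and 12.8 CPM to 7.52, 6.01, 6.25 and 8.65 CPM, without overlap, by a log2 fold change of -0.67 (adjusted p = 0.00407, SE 0.161). Cdkn2b stood at 12.5, 11.9, 12.1 and 21.3 CPM against 20.3, 17.3, 14.8 and 27 CPM, lower in 4 of 4 batches. Its log2 fold change of -0.47 had an adjusted p of 0.173, of 0.000177 with the block and of 0.000487 without P19. It was -0.286, not called, without the P19 control library alone and -0.718 without the P19 knockdown library alone. Cdkn1b was the member that rose, from 229, 230, 232 and 204 CPM to 297, 295, 303 and 222 CPM. It was higher in 4 of 4 batches, although the P19 knockdown library lay within the range of the control. The log2 fold change of 0.32 (adjusted p = 0.043, SE 0.112) did not pass the threshold in 7 of 8 fits that left out a library. With batch as a block, 9 of 10 genes were called, all but Ccne2, against 40.6% of all genes. Without P19, 9 were called as well, against 40%. Leaving out the P19 knockdown library alone also gave 9, against 31.7%.

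The knockdown was repeated under angiotensin II, in other libraries of the same batches. There 3 of 10 genes were called, all lower: Ccnd3, Cdk4 and Cdk6. Of all genes 26.7% were called, and 13.3% were called lower. Cdk6 went from 93.2, 91.9, 109 and 91 CPM in the control to 48, 54.9, 53.9 and 64.5 CPM, a log2 fold change of -0.80 (adjusted p = 3.46e-06, SE 0.0944). Ccnd3 went from 42.2, 36.9, 38.2 and 45.3 CPM to 26.3, 24.3, 23.6 and 30.7 CPM, a log2 fold change of -0.63 (adjusted p = 7.78e-05, SE 0.0975). Neither gene overlapped between groups. Cdk4 had a log2 fold change of -0.19 (SE 0.0679) at an adjusted p of 0.0485, and lost the call in 6 of 8 fits that left out a library.

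The remaining 7 genes kept the direction they had in untreated cells without passing the threshold in edgeR. Ccnd1 stood at 140, 124, 157 and 531 CPM in the knockdown against 340, 316, 388 and 670 in the control, lower in 4 of 4 batches. Its log2 fold change was -0.85 (adjusted p = 0.253, SE 0.527), -1.04 with the block (adjusted p = 0.00293) and -1.32 without P19 (adjusted p = 2.49e-08). It was -0.541, not called, without the P19 control library alone, where Ccnd2 was at -0.25. Ccnd2 had a log2 fold change of -0.42, Ccne1 of -1.47, Ccne2 of -0.48, Cdkn2a of -0.36 and Cdkn2b of -0.48, with adjusted p from 0.0835 to 0.372. Cdkn2b was at -0.245 without the P19 control library alone. Ccnd2, Cdkn2a and Cdkn2b were lower in 4 of 4 batches, but Ccne1 and Ccne2 were each higher in 1 of 4. For Ccne1, at 2 to 23 counts per library, the log2 fold change was -0.695 without the P19 control library. With all libraries, DESeq2 gave Ccne1 an adjusted p of 0.0359. Cdkn1b had a log2 fold change of 0.23 (adjusted p = 0.137, SE 0.112) and was higher in 4 of 4 batches. With batch as a block all 10 genes were called, 9 lower and Cdkn1b higher, against 41.3% of all genes. Without P19 the number was 8, against 39.9%, the exceptions being Ccne1 and Ccne2. Leaving out the P19 knockdown library alone gave 7, against 31.9%.

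Some marker sums differed with the long knockdown or with PDGF-BB, while others overlapped. Cdh1, the epithelial cadherin, stood at 36.5 to 69.4 CPM in the untreated knockdown and at 96.6 to 127 CPM in its control, and the sum over the 3 epithelial markers was 36.5 to 69.4 against 96.7 to 127 CPM. Under angiotensin II it was 35.1 to 64.3 in the knockdown against 102 to 125, and with PDGF-BB it was 154 to 195 CPM. The other epithelial markers, Epcam and Krt18, were at 3 counts or fewer in every knockdown library. Summed smooth muscle markers were 849 to 1018 CPM in the untreated knockdown, 756 to 879 with PDGF-BB and 945 to 1172 in the control, and summed leukocyte markers were 12.1 to 14.9, 11.5 to 13.7 and 10.6 to 14.8 CPM. Fibroblast sums, in the same order, were 3167 to 3563, 3036 to 4293 and 3444 to 3938 CPM. Both the leukocyte and the fibroblast sums overlapped those of the control. The mitochondrial share of counts was lower with PDGF-BB in 4 of 4 batches, at 1.73 to 2.81% against 2.65 to 3.01%, and was 2.57 to 3.27% in the untreated knockdown. Endothelial markers, with Cdh5, Cldn5 and Emcn at 3 counts or fewer, summed to 0.356 to 1.05 CPM with PDGF-BB against 1.25 to 2.76 in the control. In the untreated knockdown they summed to 1.96 to 3.88 CPM, which overlapped that control. Under angiotensin II they summed to 2.29 to 4.21 CPM in the knockdown against 0.925 to 2.28. Their part in the results was not tested.

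Angiotensin II for 24 h gave no call among the 10 genes, in control cells or in knockdown cells. Of all genes 0% were called by edgeR in control cells, 0% in knockdown cells, 0% for the mean over both and 0% for the interaction with the knockdown. None of the 10 genes had an unadjusted p under 0.05 in any of the 4 comparisons, and DESeq2 called none of them. Over all genes in control cells, 156 had an unadjusted p under 0.05 and DESeq2 called 1. In control cells the log2 fold changes of the 10 genes lay between -0.22 (Ccne1) and 0.14 (Ccnd1), with the lowest unadjusted p of 0.293 for Cdk6. Their standard errors ran from 0.0678 for Cdk4 to 0.522 for Ccnd1, so a change of the size seen for Ccnd1 in the knockdown was not detectable without the block. For the interaction, the test of whether the knockdown differed between treated and untreated cells, the lowest unadjusted p was 0.18, for Cdkn2a at a log2 difference of 0.32 (SE 0.227).

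In run 2, the libraries labelled total knockdown were compared with the antisense control, 2 against 2. None of the 10 genes was called by edgeR, against 2.07% of all genes, while 2 had an unadjusted p under 0.05 (as had 1975 of 15350 over all genes) and DESeq2 called 1, Cdk6, against 4.68%. Cdk6 stood at 20.9 and 20.1 CPM against 34.1 and 38.9 CPM, with a log2 fold change of -0.83 (adjusted p = 0.0828 by edgeR and 0.0159 by DESeq2, SE 0.207). Ccnd1 stood at 316 and 672 CPM against 110 and 151 CPM, opposite in direction to the long knockdown, with a log2 fold change of 1.92 (adjusted p = 0.317, SE 0.764). It was 1.28 without the P18 library labelled total knockdown and 2.36 without the P17 one, and for Ccnd2 these values were 0.333 and 0.826. With batch as a block, 4 genes were called, against 14.4% of all genes. Ccnd1 (log2 fold change 1.84, adjusted p = 0.0014) and Ccnd2 (0.58, adjusted p = 0.0407) were higher, and Cdk6 (-0.83, adjusted p = 0.000606) and Cdkn1b (-0.38, adjusted p = 0.0143) were lower. Leukocyte markers summed to 27.7 and 32.5 CPM in these libraries against 8.69 and 10.4 in their control, with Ptprc and Adgre1 at 3 counts or fewer. Epithelial markers summed to 71.95 to 94.3 CPM against 43.8 to 44.9, with Epcam and Krt18 at 3 counts or fewer, and endothelial markers to 6.02 to 10.1 against 2.81 to 3.9, with Cdh5, Cldn5 and Emcn at 3 counts or fewer. Fibroblast markers went the other way, with 2640 to 2768 CPM against 2943 to 2985. None of these sums overlapped, and their part in the results was not tested.

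The 3 libraries that overexpressed total CASC15 were set against 3 with the control plasmid. Again edgeR called none of the 10 genes, against 1.65% of all genes, while 2 had an unadjusted p under 0.05 (2295 of 15350 over all genes) and DESeq2 called 1, Cdk6, against 5.26%. Cdk6 stood at 71, 83.6 and 95.8 CPM with overexpression and at 42.2, 44.2 and 62.4 CPM with the control plasmid. Its groups did not overlap, and the log2 fold change was 0.75 (adjusted p = 0.061 by edgeR and 0.00367 by DESeq2, SE 0.166). Cdkn1b stood at 189, 195 and 138 CPM against 238, 251 and 186 CPM, lower in 3 of 3 batches. Some marker sums of other cell types were higher with overexpression, while the endothelial and fibroblast sums overlapped. Leukocyte markers summed to 18.1 to 23.5 CPM against 11.4 to 12.8 and epithelial markers to 65.7 to 150.1 against 43.7 to 63.8, with Ptprc, Adgre1, Epcam and Krt18 at 3 counts or fewer in all of these libraries. The mitochondrial share of counts was 0.764 to 1.16% against 1.11 to 1.28%, lower in 3 of 3 batches. Their part in the results was not tested. With batch as a block 4 genes were called, against 17.7% of all genes. Ccnd1 (log2 fold change 0.61, adjusted p = 0.0464), Cdk6 (0.76, adjusted p = 0.000182) and Cdkn2b (0.40, adjusted p = 0.0233) were higher, and Cdkn1b (-0.37, adjusted p = 0.00537) was lower. Without the block Ccnd1 stood at 0.417 (adjusted p = 0.795) and Cdkn2b at 0.365 (adjusted p = 0.552). Leaving out a library, also without the block, gave -0.1 to 1.29 for Ccnd1 and 0.128 to 0.669 for Cdkn2b.

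The controls of run 2 were also set against each other. The control plasmid and the antisense control differed in 1.18% of all genes by edgeR, and in none of the 10 genes, of which 3 had an unadjusted p under 0.05 (Ccnd2, Ccne2 and Cdk6; 1444 of 15350 over all genes) and DESeq2 called none. The plasmid control holds a P19 library and the antisense control does not. Without P19 the log2 fold change of Ccne2 went from 2.36 to 1.4 and that of Ccnd1 from 1.58 to 0.698, neither of them called. The levels of Cdk6 fell in an order without overlap between neighbouring groups: overexpression at 83.5 CPM ± 12.4 (n = 3), control plasmid at 49.6 ± 11.1 (n = 3), antisense control at 36.5 ± 3.39 (n = 2) and the libraries labelled total knockdown at 20.5 ± 0.596 (n = 2). The step between the 2 controls was not called (log2 fold change 0.44, adjusted p = 0.514) and was 0.24 without P19. Only the overexpression and plasmid groups hold a P19 library. No other member had such an order, and how many of all genes do was not counted.

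Within a family, shares of the summed level per kilobase do not depend on library scaling. They were compared over libraries with an exact two-sided permutation test, for 9 tests, and 4 libraries against 4 cannot go below p = 0.0286. Ccnd1 made up 59.4% ± 3.44 (SD, n = 4) of the D-type cyclin level in untreated control cells and 71.3% ± 1.66 (n = 4) with PDGF-BB, higher in 4 of 4 batches (exact permutation p = 0.0286, Benjamini-Hochberg adjusted 0.0514). In the long knockdown it made up 51.5% ± 6.67, lower in 4 of 4 batches (exact permutation p = 0.114, n = 4). Under angiotensin II it made up 51.4% in the knockdown and 60.8% in the control, again lower in 4 of 4 batches (exact permutation p = 0.114, n = 4). Cdk6 made up 5.43% ± 0.199 of the summed Cdk4 and Cdk6 level in control cells and 4.09% ± 0.56 in the long knockdown (exact permutation p = 0.0286, adjusted 0.0514, n = 4). Under angiotensin II the corresponding shares were 5.97% ± 0.535 and 3.98% ± 0.207 (exact permutation p = 0.0286, adjusted 0.0514, n = 4). Both pairs were lower in 4 of 4 batches.

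Ccne1 made up 18.7% ± 2.01 of the E-type cyclin level in control cells, 27.8% ± 4.84 with PDGF-BB and 7.74% ± 6.09 in the long knockdown (each exact permutation p = 0.0286, adjusted 0.0514, n = 4). Under angiotensin II its share was 14.3% ± 8.86 in control cells and 7.98% ± 4.39 in the knockdown (exact permutation p = 0.257, n = 4), a difference of -6.29 percentage points that was -2.99 without P19. None of the 9 tests passed 0.05 after adjustment.

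**Figure D4:**
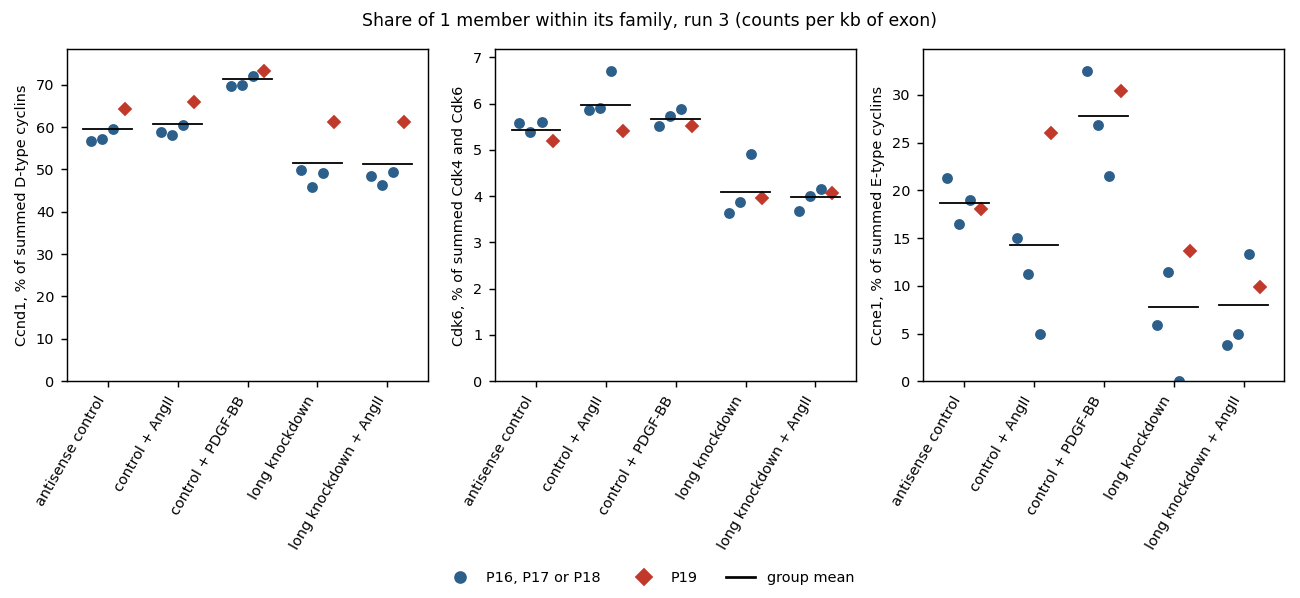
Share of Ccnd1 among D-type cyclins, of Cdk6 among Cdk4 and Cdk6, and of Ccne1 among E-type cyclins (percent of the summed level per kb of exon, axes from 0) in each library of run 3, with a bar at the group mean and batch P19 as red diamonds. The Ccnd1 share lies between 69.8% and 73.2% with PDGF-BB, and the Cdk6 share at 4.91% or lower in all 8 knockdown libraries.

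Other genes of the G1 pathway were taken from 6 lists, 48 genes in all, each tested in both runs. With PDGF-BB, 32 of the 48 rose and 5 fell, against the 43.6% called over all genes, and their median log2 fold change was 0.48. All 9 genes of S-phase entry rose, led by the replication licensing factors Cdc6 (log2 fold change 4.34), Mcm5 (3.66) and Mcm3 (2.83). Of the 13 pocket proteins and E2F or DP factors 9 rose, among them E2f8 (4.36), E2f7 (3.01) and Rbl1 (2.37), and Rbl2, the pocket protein of resting cells, fell (-0.21). Of 8 other kinases, cyclins and activators 4 rose, with Ccna2 first (3.55), and Ccndbp1 fell. Of 8 genes of cyclin and p27Kip1 turnover 3 rose, including Skp2 (1.39) and Cks1b (1.22), which direct p27Kip1 to degradation. Of 6 inputs to these genes 4 rose, including Foxm1 (2.96) and Myc (0.64), and Foxo1 and Foxo3 fell. The 4 other inhibitors all changed: Cdkn2d (1.84), Cdkn2c (1.67) and Cdkn1a (0.48) rose, and Cdkn1c (-1.75), the inhibitor p57Kip2, fell.

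With the long knockdown in untreated cells, 5 of the 48 rose and 8 fell, against the 25% called over all genes, and their median log2 fold change was -0.06. Rbl2 (log2 fold change 0.49) and Tfdp2 (0.32) rose, and E2f2 (-1.18) and E2f6 (-0.34) were among 4 pocket protein and E2F genes that fell. Myc (-0.63) and Foxm1 (-1.10) fell and Foxo1 (0.37) rose. Of the 4 other inhibitors, Cdkn2c rose (0.50, adjusted p = 0.00409) and Cdkn1c fell (-0.86, adjusted p = 0.0269), while Cdkn1a and Cdkn2d were not called. Of the 9 genes of S-phase entry, 1 was called, Mcm7, which was higher by 0.26. With the block Mcm7 stayed higher and Mcm2 (-0.28, adjusted p = 0.0201) and Cdc6 (-0.85, adjusted p = 0.0443) were called lower, against 40.6% of all genes. Under angiotensin II, 8 of 48 rose and 9 fell, against the 26.7% called over all genes, with Myc (-0.78), Foxm1 (-1.01) and Rbl2 (0.49) among them. With the block, 1 gene of S-phase entry was higher there, Mcm7, and 3 were lower, Mcm2 (-0.50), Mcm5 (-0.74) and Mcm6 (-0.20), against 41.3% of all genes. In run 2, edgeR called none of the 48 in the libraries labelled total knockdown, where 6 had an unadjusted p under 0.05 (1975 of 15350 over all genes) and DESeq2 called 3, against 4.68% of all genes. With overexpression it called none either, 10 had an unadjusted p under 0.05 (2295 of 15350 over all genes) and DESeq2 called 4, against 5.26%. With batch as a block, 7 of the 9 genes of S-phase entry were higher in the libraries labelled total knockdown, against the 14.4% called over all genes, and 8 of 9 with overexpression, against 17.7%.

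**Figure D5:**
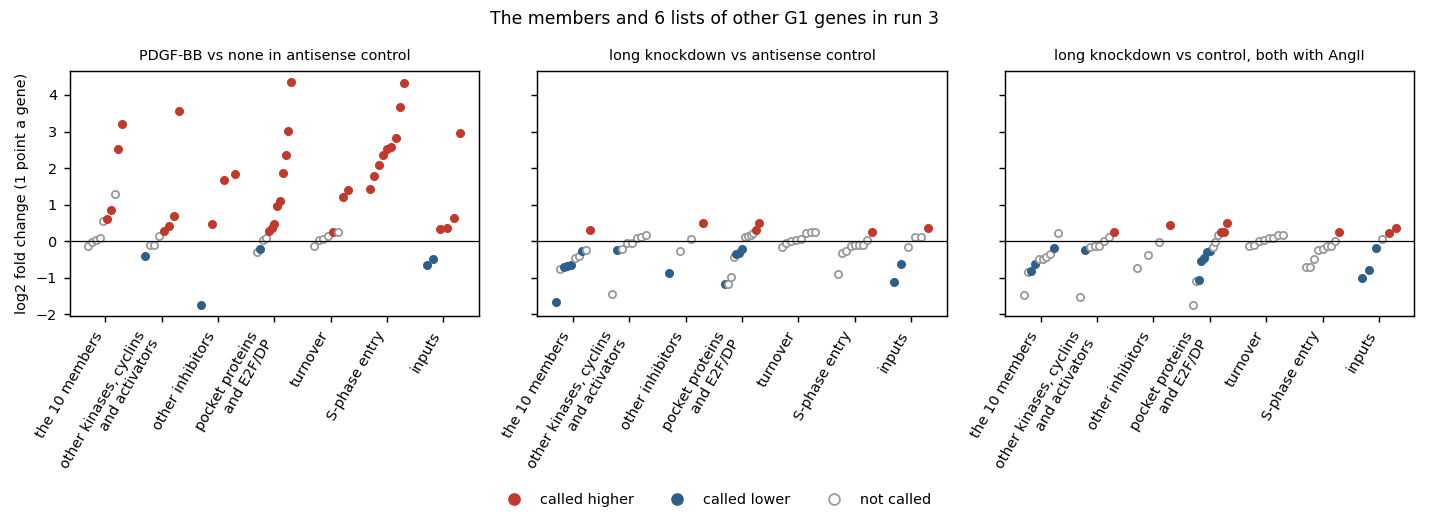
Log2 fold change of the 10 members and of 48 other G1 genes by list, 1 point per gene, in 3 comparisons of run 3 (fit without a block); filled red points were called higher and filled blue points lower. All 9 genes of S-phase entry were higher with PDGF-BB, and 1 of 9 was called in the long knockdown.

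For each member with a mean of at least 5 CPM, the genes with the most similar pattern were found by Pearson's r of log2 CPM over the 20 libraries of run 3. These correlations are descriptions, since the libraries share groups and batches. Ccnd1 was most like Msmo1 and Idi1, enzymes of sterol synthesis (r = 0.994 for each), and Ccnd2 was most like Ccnd1 (r = 0.983). Ccnd3 was most like Srebf1, a regulator of lipid synthesis genes, and Pcyt2 (r = 0.987 for each). Ccne2 was most like Cse1l (r = 0.983) and Rbbp7 (r = 0.98), Cdk4 like Npnt (r = 0.972) and Cdk6 like Ccl2 (r = 0.975). Among the inhibitors, Cdkn1b was most like Kdm3a (r = 0.966), Cdkn2a like Ttll12 (r = 0.956) and Cdkn2b like Cab39 (r = 0.957). The most similar other member was Ccnd3 for Cdkn2a (r = 0.922) and Ccnd2 for Cdkn2b (r = 0.852). Ccne1 fell below the minimum level.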

How the data were processed

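Members and pathway lists were chosen with earlier results of these data known. The deposited values are expected counts, which RSEM estimates per gene and library; they are not scaled to depth, per the labels. The submitters' processing notes name STAR 2.7.11b, RSEM 1.3.1 and the builds GRCm39 and mm10, without a role for each. Annotation, strandedness and filters are not given in the sources used here. Symbols came from a GENCODE table, which matched 51486 of 78334 identifiers holding 98.7% of counts.

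Expected counts were rounded. Each run was fitted apart with edgeR 4.0.16 in R 4.3.3 (filterByExpr with a minimum count of 10 and a minimum total of 15, TMM, robust quasi-likelihood fit, group means). Calls are at a Benjamini-Hochberg adjusted p under 0.05 over all genes of a comparison. Exon lengths came from GENCODE M21. DESeq2 and other alternatives are listed in the closing section. Common coefficients of variation (run 2, then run 3) were 0.232 and 0.148. No 2 libraries of a group agreed within sampling noise.

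The labels name P16 to P19 as a batch, so same-numbered libraries were taken as paired. After removing group means their correlation averaged 0.23 in run 2 and 0.197 in run 3, against -0.121 and -0.0606 for other pairs.

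Members are described in all 9 groups. From each list at most 4 called genes are named per comparison, and these are not always the ones with the largest change. All of the other inhibitors are named for PDGF-BB and for the untreated long knockdown. For likeness, the 2 highest correlations among genes with a mean of at least 5 CPM and no Gm or Rik symbol were kept.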

Additional observations from a re-analysis of the deposited data

Results flagged for a closer look

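Of 50 groups of 4 libraries examined (10 genes in the 5 groups of run 3), 12 held a library whose gap to its nearest neighbour, as a share of the range of the group, exceeded the critical value of Dixon, where chance would give about 1 in 20, or 2.5. The far library was that of batch P19 in 11 of the 12.

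Ccnd1 in P19 stood at 617.9 CPM in the untreated control, 525.5 CPM in the untreated long knockdown and 530.6 CPM in the long knockdown with angiotensin II, above all others of its group. Ccnd2 in P19 stood at 638.2, 636.3 and 641.3 CPM in the same groups, again the highest. Cdkn2b in P19 was highest in the untreated knockdown, at 21.33 CPM, and in the control with angiotensin II, at 29.78 CPM. Cdkn1b in P19 was the lowest of its group in the untreated control at 204.4 CPM, in the control with angiotensin II at 189.2 CPM and in the untreated knockdown at 221.9 CPM. The remaining value was Cdk6 in the P18 control library with angiotensin II, at 108.9 CPM against 90.95 to 93.23 CPM in the others.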

How the results depend on the processing

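Alternatives were DESeq2, its size factors (RLE) in edgeR, no filter on low counts, a mean of at least 1 CPM, only the groups compared, batch as a replicate block, leaving out each library and, chosen after seeing the data, leaving out P19. Of 865 log2 fold changes of members under an alternative, 739 kept their direction and side of the threshold, 76 gained and 25 lost a call, and 25 changed sign. The cause was not tested. All 99 alternative values of the family shares kept their direction. Whether they pass says nothing about stability, since a sign-flip test within 4 batches cannot go below an exact p of 0.125 and leaving out a library also leaves too few to pass. The numbers of called members for angiotensin II stayed at 0 in the settings run.

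In the libraries labelled total knockdown, against 0 without a block, 1 member was called by DESeq2 (4.68% of all genes), 3 without the filter (4.44%), 4 with the replicate block (14.4%), 1 with only the groups compared (7.34%), 1 without P19 (6.86%) and 4 without P19 with the replicate block (15.8%). With overexpression the numbers were 1 by DESeq2 (5.26%), 1 without the filter (4.56%), 4 with the replicate block (17.7%), 1 without P19 (5.57%), 5 without P19 with the block (17.1%), and 0 to 1 when a library was left out (0.561 to 5.69%). Between the controls of run 2, 3 were called without the filter (3.7%). For the long knockdown with angiotensin II they were 10 with the replicate block (41.3%), 8 without P19 (39.9%), 8 without P19 with the block (42.1%), and 2 to 7 when a library was left out (19.8 to 31.9%), 7 being without the P19 knockdown library. For PDGF-BB the replicate block gave 7 (54.5%). The replicate block moved no other number of called members by over 1.5 times.

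Log2 fold changes whose sign changed were those of Cdkn1b between the run 2 controls (0.0518 with the replicate block, 0.032 without P19, 0.0321 without P19 with the block) and of Cdkn2b with PDGF-BB (0.00251 without P19, 0.00767 with the block as well). When a library was left out, the ranges that crossed 0 were, in the libraries labelled total knockdown, -0.0989 to 0.0226 for Ccnd3 and -0.0731 to 0.274 for Cdkn2b. With overexpression they were -0.1 to 1.29 for Ccnd1, -0.00928 to 0.567 for Ccnd2, -0.104 to 0.388 for Ccnd3, -0.858 to 1.1 for Ccne2 and -0.193 to 0.145 for Cdkn2a. Between the controls of run 2 they were -0.174 to 0.0386 for Cdkn1b and -0.413 to 0.116 for Cdkn2b, and with PDGF-BB -0.019 to 0.0738 for Cdk4 and -0.213 to 0.177 for Cdkn2b. Leaving out a library of a pair leaves 1, which is then assumed to vary like the other groups. The depth limits Ccne1 most, with 0 to 57 counts per library outside PDGF-BB.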
